A study of Mus musculus with 6 samples.

Results

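The levels of 32 astrocyte genes, chosen by name, were followed in mouse neural cultures infected with a control hairpin or with a short hairpin RNA (shRNA) against REST. All 32 were measured by a probe set annotated to exactly 1 gene, among 18194 such genes in all, and each was read by its brightest probe set over the 6 arrays. A probe set is the group of short probes on an Affymetrix array that reads a transcript, and its value is a log2 signal.

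Astrocytes are glial cells that clear glutamate from synapses, buffer potassium and water through channels and gap junctions, supply lipids and other metabolites to neurons, and secrete matrix proteins. In the developing brain they arise after neurons from radial glia, when cytokines acting through JAK and STAT factors, bone morphogenetic proteins, Notch and nuclear factor I proteins switch on genes such as Gfap. REST is a zinc finger repressor that holds neuronal genes down in cells that are not neurons.

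The RNA came from cells the labels call NSP cells, grown from mouse brains at E12.5, counted in days of embryonic life. The cells were plated on coated dishes, grown to confluence and split, then exposed overnight to lentivirus carrying either a control (CTL) or a REST hairpin, so cells of both groups were infected. They were collected 6 days after infection, and each group has 3 arrays, numbered 1 to 3. The labels give no strain or hairpin sequence and do not say whether arrays of a group came from separate cultures. Each p therefore reflects the spread among these arrays, and that spread may be technical. The cultures carried markers of several cell types, so fewer astrocytes and less of a transcript per astrocyte cannot be told apart.

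REST shRNA array 2 stood apart from the other arrays before any group comparison. Its mean correlation with the other 5 arrays was 0.967, against 0.976 to 0.984 for the others, and 2.43% of all genes lay there more than 1 log2 unit below every other array, against at most 0.198% for any other array. Results are therefore given for each number and without that array. The Gapdh 3' minus 5' signal, a measure of RNA integrity, was 1.93 there and between 1.72 and 2.87 in the other arrays. The targeted transcript, Rest, read 8.92, 8.75 and 8.90 in the control arrays and 8.63, 7.70 and 8.20 in the REST shRNA arrays, lower in each pair of same-numbered arrays (log2 differences of -0.28, -1.05 and -0.70). For Rest the exact permutation p (two-sided) was 0.1, the smallest that 3 against 3 arrays allow. All 10 measured progenitor markers, among them Sox2, Fabp7 and Vim, lay above the highest bacterial control signal of 3.24, used here as the background level, and so did the means of all 32 astrocyte genes.

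The stretch before the transcription start is shown for the 3 astrocyte genes with the smallest p, which are the glutamate transporter gene Slc1a2, the growth factor receptor gene Fgfr3 and Hopx, the sole member higher in every pair. They were taken from RefSeq on GRCm38.p6, each as the 250 bases before the first listed start, read on the gene's own strand. Capitals mark matches to GGACAG, the right part of the RE1 element that REST binds. The windows lie at chr2:102706188-102706437, plus strand for Slc1a2, chr5:33721474-33721723, plus strand for Fgfr3 and chr5:77115124-77115373, minus strand for Hopx, the last 2 genes having 2 listed starts each.
Slc1a2: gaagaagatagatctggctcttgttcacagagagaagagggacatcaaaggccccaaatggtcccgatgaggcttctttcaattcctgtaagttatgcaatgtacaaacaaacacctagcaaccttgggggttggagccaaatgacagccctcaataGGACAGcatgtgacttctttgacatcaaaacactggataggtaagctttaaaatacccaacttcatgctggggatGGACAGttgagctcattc
Fgfr3: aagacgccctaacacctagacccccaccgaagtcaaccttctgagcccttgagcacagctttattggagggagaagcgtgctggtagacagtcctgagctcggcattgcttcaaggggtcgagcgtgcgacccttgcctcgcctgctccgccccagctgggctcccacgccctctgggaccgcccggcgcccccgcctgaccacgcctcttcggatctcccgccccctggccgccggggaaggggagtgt
Hopx: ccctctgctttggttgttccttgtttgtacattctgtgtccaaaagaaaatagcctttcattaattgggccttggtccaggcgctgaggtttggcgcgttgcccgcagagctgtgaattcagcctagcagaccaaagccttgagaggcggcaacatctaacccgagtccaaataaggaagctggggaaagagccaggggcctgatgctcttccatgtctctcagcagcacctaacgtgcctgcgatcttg

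Both matches lay in the Slc1a2 window, at 93 to 88 and at 18 to 13 bases before the start, and the other 2 windows held none of the motifs searched. Of the 32 genes, 28 had such a window in the table. On both strands GGACAG was present in 5 of the 28 windows (17.9%, against 18.7% of 27025 windows of all genes), in Fgfbp3, Gjb6, Mt3, Slc1a2 and Slc39a12. TTCAGCACC, the left part of RE1, was present in 0 of the 28 and in 0.285% of all windows. TTCNNNGAA, the STAT element, was found in 4 (14.3%, against 7.18%), in the windows of Acsbg1, Agt, Ntsr2 and Slc1a3. TTGGCA, the core of the nuclear factor I site, was found in 2 (7.14%, against 3385 of the 27025), and ACAAAG, bound by SOX factors, in 2 (7.14%, against 16.5%). None of these strings is contained in another, and a match describes the letters only.

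Across the 3 arrays of each group the astrocyte genes stood lower with REST shRNA, with 26 of 32 below control and a median log2 difference of -0.35, against 42.8% below and a median of 0.04 over all genes. The pairs of same-numbered arrays differed. The median was 0.10 in pair 1, -1.20 in pair 2 and 0.19 in pair 3, where all genes had medians of 0.01, -0.01 and 0.11. In pair 2, 29 of the 32 were lower, and 20 (62.5%, against 4.79% of all genes) were lower by more than 1 log2 unit. In pairs 1 and 3, 15 and 10 were lower. Without REST shRNA array 2 the median was 0.04, with 13 genes lower and 19 higher. No astrocyte gene passed the threshold in limma, an adjusted p under 0.05 over all genes, in a table where 0% of genes passed. At an unadjusted p under 0.05, 1 of 32 was lower, Slc1a2 (3.12%, against 1.07% of all genes), and 0 were higher (1.78% of all genes).

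**Figure D1:**
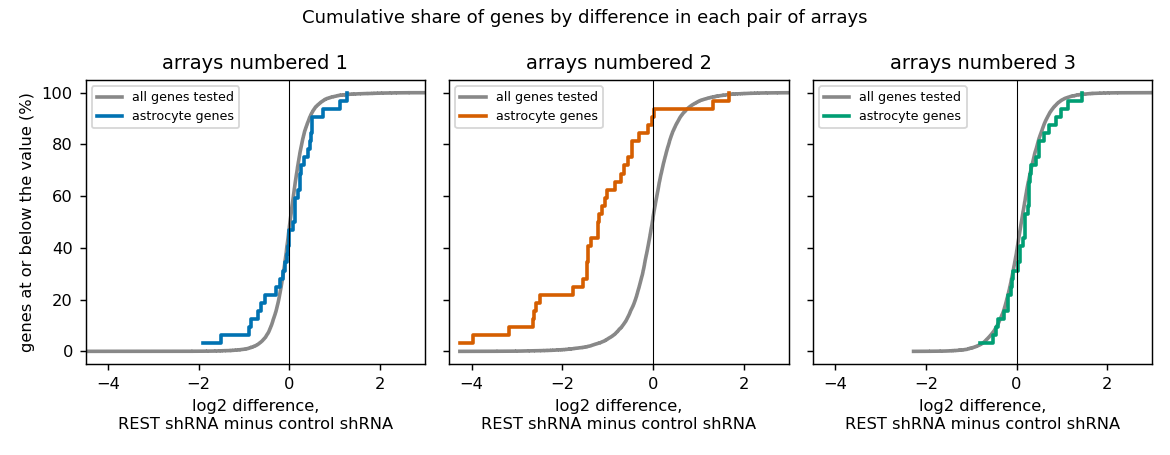
Cumulative share of genes (vertical axis, percent) by log2 difference between REST shRNA and control shRNA (horizontal axis) in the arrays numbered 1, 2 and 3, for the 32 astrocyte genes (coloured steps) and all 18194 genes (grey). The astrocyte curve lies to the left of the grey curve over most of its range in the arrays numbered 2, with a median of -1.20, and nearer to it in the other pairs, with medians of 0.10 and 0.19.

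REST shRNA array 2 held low values for genes of every role. It was the lowest of the 6 arrays for 25 of the 32 genes (27.5% of all genes had their lowest value there), and 15 of the 32 (46.9%, against 2.43% of all genes) lay more than 1 log2 unit below every other array. These 15 were Aqp4, Gja1, Mlc1, Dio2, Apoe, Clu, Agt, Cst3, Itih3, Sparc, Sparcl1, Timp3, Ntsr2, S100b and S100a6. The gap to the lowest of the other 5 arrays was greatest for Agt (8.47-fold), followed by Apoe (6.58-fold), Aqp4 (6.27-fold), Clu (5.99-fold) and Sparcl1 (5.22-fold). Only 3 members had their highest value in that array, Hopx, Tnc and Acsbg1. The summed linear signal of the 32 genes was between 40595 and 43881 in the control arrays, 46349 and 42952 in REST shRNA arrays 1 and 3, and 21044 in array 2. The SD over the REST shRNA arrays exceeded the SD over the control arrays for 28 of the 32 genes (87.5%, against 66.6% of all genes), with medians of 0.92 and 0.35.

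**Figure D2:**
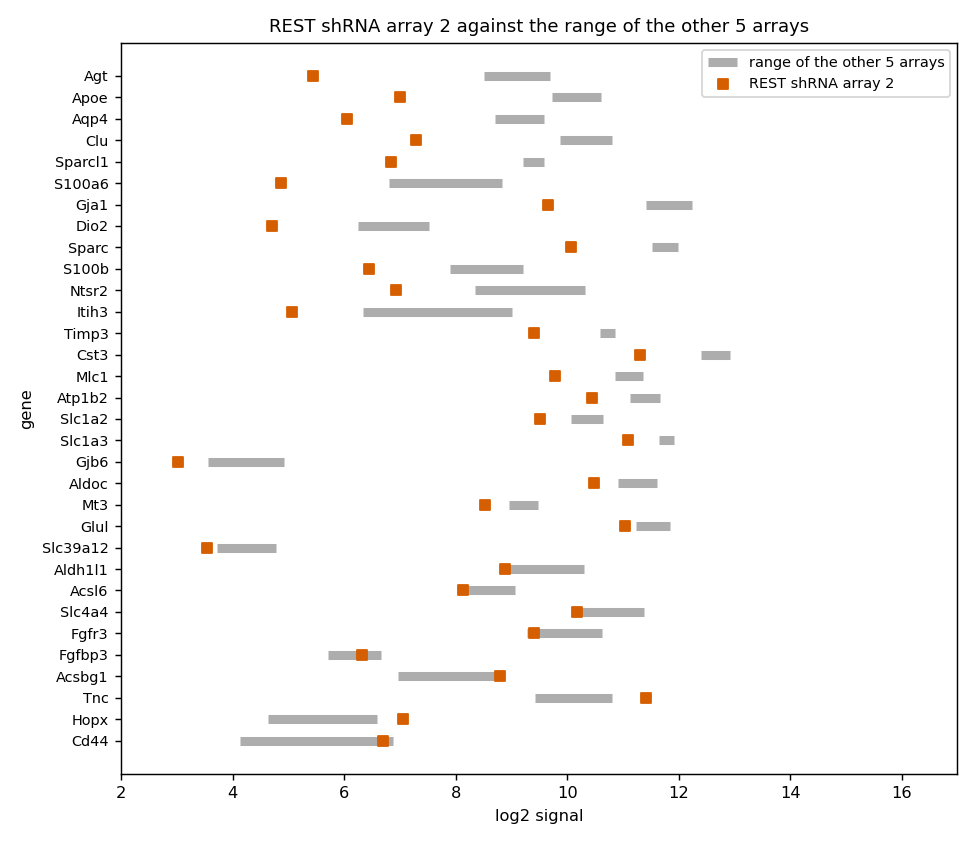
Log2 signal (horizontal axis) of each of the 32 astrocyte genes (vertical axis), with the square for REST shRNA array 2 and the grey bar for the range of the other 5 arrays. The square lies left of the bar for 25 genes, by 3.08 log2 units for Agt, and right of it for Hopx, Tnc and, by 0.01, Acsbg1.

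The 3 genes of glutamate uptake and recycling all had mean differences below 0, and their pair 2 median of -0.55 was the nearest to 0 of the 6 roles. Slc1a2 encodes the main glutamate transporter of mature astrocytes. It read 10.61, 10.53 and 10.64 in control arrays 1, 2 and 3 and 10.07, 9.51 and 10.11 in REST shRNA arrays 1, 2 and 3. All 3 REST shRNA arrays lay below all 3 control arrays, and array 2 was the lowest. The mean was 10.59 ± 0.06 (SD, n = 3) with control shRNA and 9.90 ± 0.33 (SD, n = 3) with REST shRNA, which is 61.7% of control. The log2 difference was -0.70 ± 0.20 (SE, log2), with a 95% CI of -1.17 to -0.22. In limma, fitted across all genes, the unadjusted p was 0.0106 and the adjusted p was 1. Without REST shRNA array 2 the difference was -0.50. Its other 4 probe sets were also below control, at 61.7%, 67.3%, 72.3% and 86.1%. The groups overlapped in those at 61.7% and 86.1% and did not in those at 67.3% and 72.3%. Slc1a3, the related transporter that radial glia already carry, read 11.79, 11.64 and 11.78 with the control hairpin and 11.92, 11.09 and 11.69 with REST shRNA, so the groups overlapped, and it differed by -0.17 ± 0.23 (SE, log2). The pair differences were -0.54, -1.02 and -0.53 for Slc1a2 and 0.12, -0.55 and -0.09 for Slc1a3. Glul, glutamine synthetase, which turns captured glutamate into glutamine, was lower in every pair, at -0.21, -0.47 and -0.12, with overlapping groups and a mean difference of -0.27 ± 0.22 (SE, log2).

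**Figure D3:**
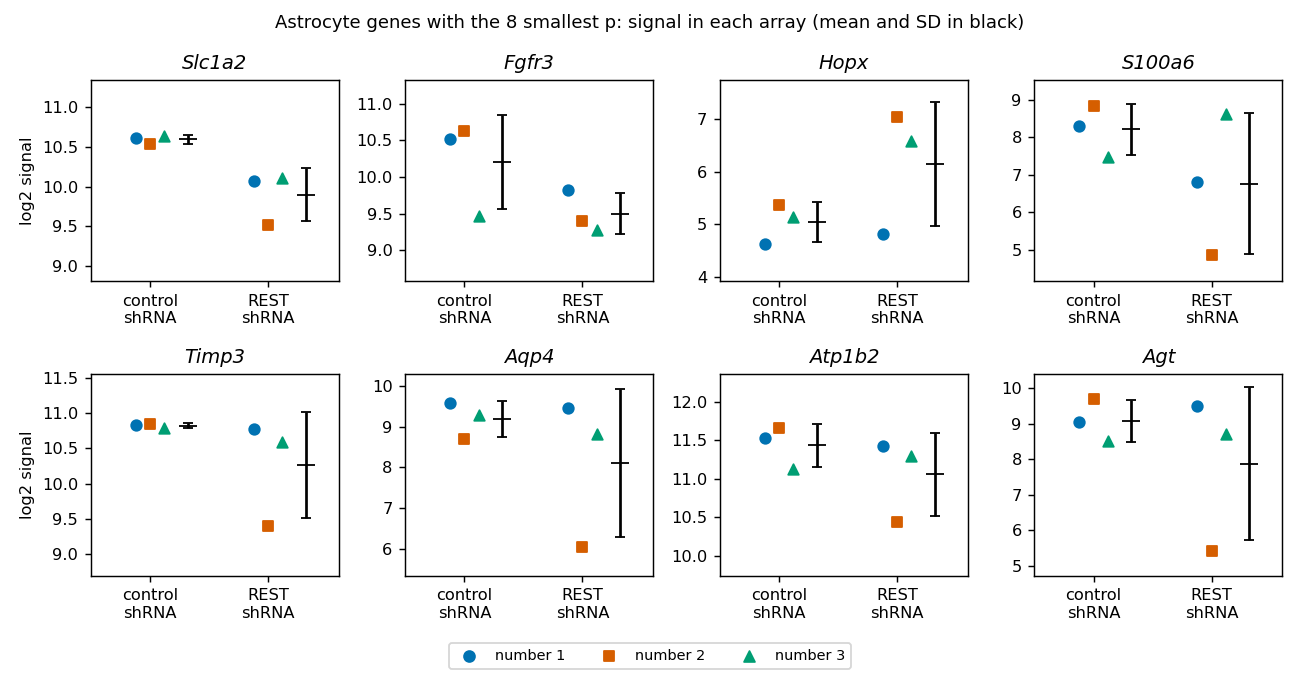
Log2 signal (vertical axis, scaled for each gene and not starting at 0) in every array for the 8 astrocyte genes with the smallest p, by group (horizontal axis) and by array number (colour and symbol), with mean and SD (n = 3) in black. The groups separate for Slc1a2 and Timp3, while for S100a6, Aqp4, Atp1b2 and Agt the square of REST shRNA array 2 lies below the other 5 points.

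Channels, gap junctions and ion transporters all had mean differences below 0, and all 6 were lower in pair 2. Aqp4, the water channel of astrocyte endfeet, read 9.58, 8.70 and 9.28 in control arrays 1, 2 and 3 and 9.45, 6.05 and 8.82 in REST shRNA arrays 1, 2 and 3. REST shRNA array 1 lay within the control range, array 3 lay inside it as well, and array 2 lay far below. The mean difference was -1.08 ± 0.84 (SE, log2), against -0.05 when REST shRNA array 2 was left out. The other 2 probe sets of Aqp4 gave -2.36 and -2.61 in pair 2 and between -0.30 and 0.42 in the other pairs. Gja1 encodes the main gap junction protein of astrocytes. Its pair differences were 0.48, -1.75 and -0.29, from 11.76, 11.41 and 12.01 with the control hairpin and 12.24, 9.65 and 11.72 with REST shRNA, and all 6 of its probe sets were lower in pair 2, at -1.40 to -2.65. Of the 6, 4 including the brightest are of the kind that may also bind other transcripts. Gjb6, a second astrocyte connexin, lay close to background, and in REST shRNA array 2 below it, at 4.16, 4.19 and 3.55 with the control hairpin and 4.91, 3.01 and 3.82 with REST shRNA. Its differences were 0.75 in pair 1 and 0.27 in pair 3, and the pair 2 difference of -1.18 is taken against a value not above background. Atp1b2, the beta subunit of the sodium pump in glia, read 11.53, 11.66 and 11.12 with the control hairpin and 11.43, 10.44 and 11.30 with REST shRNA, with only array 2 outside the control range. Slc4a4, a sodium bicarbonate cotransporter, read 11.24, 11.01 and 10.53 with the control hairpin and 11.37, 10.17 and 10.13 with REST shRNA. There REST shRNA arrays 2 and 3 were about level, below the control arrays, and array 1 was above them. Among its dimmer probe sets above background, pair 2 differences were -1.01, -1.04 and 0.59. The last of these held its highest value, 9.94, in REST shRNA array 2. Mlc1, a membrane protein of astrocyte junctions, was between 10.85 and 11.35 in the other 5 arrays and 9.79 in REST shRNA array 2.

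The 7 genes of metabolism and metal handling had a median difference of -0.22, with 4 below 0, and a pair 2 median of -0.63. Aldh1l1, an enzyme of folate metabolism and a widely used astrocyte marker, read 10.30, 9.51 and 8.95 with the control hairpin and 9.40, 8.88 and 9.38 with REST shRNA. Its highest value was control array 1, the groups overlapped, and the pair differences were -0.90, -0.63 and 0.43. Dio2, the deiodinase that makes active thyroid hormone, read 7.07, 6.24 and 7.51 with the control hairpin and 7.20, 4.71 and 6.71 with REST shRNA. REST shRNA array 2 was the lowest by 1.53 log2 units, and the mean difference was -0.73 ± 0.67 (SE, log2). Acsbg1, an acyl-CoA synthetase, read 8.53, 8.77 and 6.96 with the control hairpin and 7.68, 8.79 and 7.15 with REST shRNA. Both arrays numbered 3 lay below the other 4 for this gene, while array 2 of the REST shRNA group held its highest value. Acsl6, a long-chain acyl-CoA synthetase, read 8.65, 8.59 and 8.20 with the control hairpin and 9.07, 8.13 and 8.27 with REST shRNA and differed by 0.01 ± 0.28 (SE, log2). Mt3, a metallothionein that binds zinc, read 8.96, 9.23 and 8.95 with the control hairpin and 9.47, 8.53 and 9.26 with REST shRNA, with pair differences of 0.51, -0.70 and 0.31. Aldoc, the glycolytic aldolase of astrocytes, was lower in pair 2 by 1.14 and differed by -0.03 and 0.27 in the other pairs, and its second, dimmer probe set was lower in every pair, at -0.52, -1.55 and -0.27. The zinc transporter gene Slc39a12, near background in every array, differed by 0.01 ± 0.39 (SE, log2).

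Secreted proteins had the lowest pair 2 median of the 6 roles, -1.97, with 8 of 10 lower by more than 1 log2 unit in pair 2. Agt, angiotensinogen, which brain astrocytes make, read 9.04, 9.69 and 8.51 in control arrays 1, 2 and 3 and 9.50, 5.43 and 8.70 in REST shRNA arrays 1, 2 and 3. REST shRNA arrays 1 and 3 lay within the control range, and array 2 lay 3.08 below the lowest other array. Apoe, the main lipid carrier of the brain, read 10.07, 10.19 and 9.72 with the control hairpin and 10.30, 7.003 and 10.60 with REST shRNA. REST shRNA arrays 1 and 3 exceeded every control array and array 2 lay below all of them, and the mean difference was -0.69 ± 0.91 (SE, log2). Clu, another apolipoprotein, gave pair differences of 0.23, -2.58 and 0.71. Its brightest probe set is of the kind that may also bind other transcripts, and a dimmer probe set not of that kind gave 0.08, -2.44 and 1.09. Itih3, an inhibitor chain that binds hyaluronan, read 7.89, 7.69 and 6.34 with the control hairpin and 9.001, 5.06 and 6.83 with REST shRNA, again with array 2 the lowest and array 1 the highest. Sparc and Sparcl1 are related matrix proteins that act on synapses in opposite ways. For Sparc the values were 11.76, 11.52 and 11.95 with the control hairpin and 11.74, 10.07 and 11.98 with REST shRNA, and for Sparcl1 9.21, 9.33 and 9.59 with the control hairpin and 9.53, 6.83 and 9.52 with REST shRNA. In pairs 1 and 3 neither differed by more than 0.32, and in pair 2 the difference was -1.45 for Sparc and -2.50 for Sparcl1. Timp3, an inhibitor of matrix metalloproteinases, read 10.82, 10.85 and 10.78 in control arrays 1, 2 and 3 and 10.78, 9.40 and 10.60 in REST shRNA arrays 1, 2 and 3. Its control arrays lay within 0.07 of each other and all REST shRNA arrays lay below them, array 1 by so little that it equals control array 3 at 2 decimals, with pair differences of -0.05, -1.45 and -0.19. In each of its other, dimmer probe sets the groups overlapped. Pair differences there were 0.21, -2.21 and -0.34 in 1 and 0.25, -1.59 and 0.16 in another. The remaining probe set barely differed in pairs 1 and 3 and gave -1.86 in pair 2. By the brightest probe set the groups of Slc1a2 and Timp3 did not overlap, which makes 2 of 32 (6.25%, against 2.65% of all genes in that direction). Cst3, a protease inhibitor, was lower by 1.38 in pair 2 and higher in the other pairs. Fgfbp3, a carrier of fibroblast growth factors, differed by no more than 0.30 in any pair.

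Tnc had the opposite sign in pair 2. It encodes tenascin C, a matrix protein of radial glia and immature astrocytes, and read 10.06, 10.10 and 10.48 in control arrays 1, 2 and 3 and 9.43, 11.42 and 10.80 in REST shRNA arrays 1, 2 and 3. REST shRNA array 2 held the highest value and REST shRNA array 1 the lowest, so the groups overlapped and the mean difference was 0.34 ± 0.48 (SE, log2).

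Among the surface receptors Fgfr3 was lower in every pair. Fgfr3, a fibroblast growth factor receptor of radial glia and astrocytes, read 10.52, 10.63 and 9.47 in control arrays 1, 2 and 3 and 9.82, 9.40 and 9.28 in REST shRNA arrays 1, 2 and 3. Control arrays 1 and 2 lay above all REST shRNA arrays, but control array 3 lay within their range. The mean difference was -0.70 ± 0.34 (SE, log2), with an unadjusted limma p of 0.0774. It was -0.65 when REST shRNA array 2 was left out, and -0.44 when control array 2 was left out too. The second probe set of Fgfr3 was higher in pair 3, by 0.69. Cd44, the hyaluronan receptor of astrocyte-restricted precursors, read 6.03, 6.71 and 6.38 with the control hairpin and 4.12, 6.69 and 6.86 with REST shRNA. Here REST shRNA array 1, not array 2, was the low one, and all 3 of its brighter probe sets showed this. Ntsr2, a neurotensin receptor of astrocytes, read 8.35, 8.35 and 9.34 with the control hairpin and 9.62, 6.92 and 10.32 with REST shRNA. REST shRNA arrays 1 and 3 both lay above every control array and array 2 lay below all of them. Without array 2, the difference was 1.29 for Ntsr2 and 0.41 for Mlc1. Both had an unadjusted limma p under 0.05, as did 768 of the 18194 genes in that direction, and the limma adjusted p was 0.773 for Ntsr2 and 0.852 for Mlc1. Slc1a2 was the 1 member lower at that threshold, beside 296 of all genes, with an adjusted p of 0.767 in limma. Without both arrays numbered 2, Slc1a2 and Ntsr2 stayed under that threshold, and the unadjusted limma p of Mlc1 was 0.0900.

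The 2 calcium-binding S100 proteins and the nuclear protein Hopx had the lowest and the highest mean difference of the 32, for S100a6 and Hopx. S100a6, found in some astrocytes and precursors, read 8.30, 8.83 and 7.48 in control arrays 1, 2 and 3 and 6.79, 4.86 and 8.61 in REST shRNA arrays 1, 2 and 3. The values spread widely, with array 2 the lowest and array 3 above 2 of the 3 control arrays, and the mean difference was -1.45 ± 0.90 (SE, log2). This difference was -0.50 when REST shRNA array 2 was dropped, and -0.19 when control array 2 was dropped as well. S100b, the classic astrocyte member of that family, read 8.10, 7.89 and 8.58 with the control hairpin and 8.08, 6.45 and 9.20 with REST shRNA, with pair differences of -0.02, -1.44 and 0.62. Hopx, a small homeodomain protein found in radial glia and some astrocytes, was the sole member higher in every pair, by 0.19, 1.67 and 1.45 (3.12% of the members, against 13.6% of all genes). It read 4.62, 5.37 and 5.14 in control arrays 1, 2 and 3 and 4.81, 7.04 and 6.59 in REST shRNA arrays 1, 2 and 3. REST shRNA arrays 2 and 3 lay above all controls, and array 1 lay among them, so the groups overlapped. The mean difference was 1.10 ± 0.57 (SE, log2), at an unadjusted limma p of 0.0952 and an adjusted p of 1. Its second, dimmer probe set was higher in every pair too. It read 4.45, 4.31 and 4.14 with the control hairpin and 4.76, 5.94 and 5.15 with REST shRNA, without overlap. That probe set is of the kind that may also bind other transcripts. In all, 5 of 32 members were lower in every pair by the brightest probe set, namely Slc1a2, Fgfr3, Timp3, Aqp4 and Glul (15.6%, against 8.77% of all genes).

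**Figure D4:**
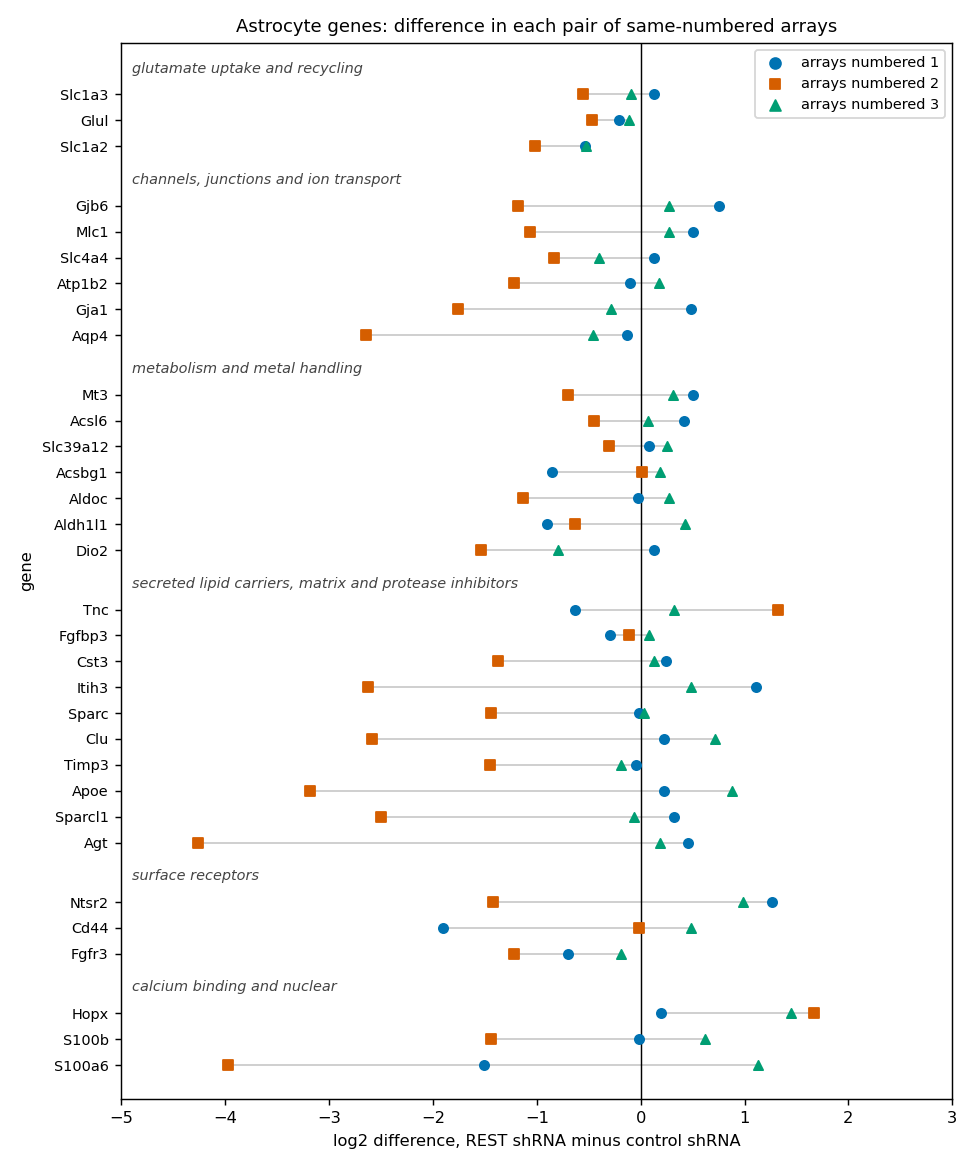
Log2 difference between REST shRNA and control shRNA (horizontal axis) for each of the 32 astrocyte genes (vertical axis, grouped by role), with a symbol for each pair of same-numbered arrays. The squares of pair 2 lie left of 0 for 29 genes, and the circles and triangles of pairs 1 and 3 lie left of 0 for 15 and 10 genes.

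The further probe sets were compared with the brightest. Of the 32 members 20 had more than 1 probe set, with 43 further probe sets, and 40 of these had the sign of the brightest one in the mean difference. The other 3 belonged to Acsl6, Cd44 and Slc4a4, and the last 2 lay below background. In pair 2, 37 of the 43 had the same sign as the brightest.

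The genes that drive astrocyte formation were read as a second list. Of 34 listed ligands, receptors, signal transducers, transcription factors, inhibitors and the output gene Gfap, 31 were measured. None was called (0% of all genes were), 0 had an unadjusted limma p under 0.05 in either direction with group as the only term, 23 of 31 had a difference below 0, and the median was -0.21, or -0.04 without REST shRNA array 2. With the replicate number as a block term, the unadjusted limma p was 0.0185 for Bmpr1b, 0.0224 for Dll1 and 0.0464 for Socs3, all lower, and the adjusted p was 1 for each. In pair 2 the median was -0.20, and 6 of 31 (19.4%, against 4.79% of all genes) were lower by more than 1. Gfap encodes the intermediate filament protein of astrocytes. It read 9.93, 8.85 and 10.72 in control arrays 1, 2 and 3 and 11.11, 5.58 and 11.73 in REST shRNA arrays 1, 2 and 3. REST shRNA arrays 1 and 3 exceeded all controls and array 2 lay 3.27 below its control, so the mean difference was -0.36 ± 1.57 (SE, log2). This brightest probe set is of the kind that may also bind other transcripts. A dimmer probe set not of that kind gave pair differences of 1.58, -2.78 and 1.33 and a mean difference of 0.04. In the remaining probe set REST shRNA array 1, at 10.38, lay below control array 3, at 10.87.

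Lower in every pair were 11 of the 31 (35.5%, against 8.77% of all genes). They were the Notch ligand Dll1, the receptors Lifr, Bmpr1a and Bmpr1b, the transducers Jak2, Smad1, Smad4 and Rbpj, the transcription factors Nfia and Nfib, and the cytokine signal inhibitor Socs3. Some met this count through very small differences. In pair 3 these were -0.0081 for Smad1, -0.012 for Nfia and -0.032 for Socs3, and in pair 1 -0.022 for Jak2. Lif, the ligand of the Lifr receptor, was the sole gene of the list higher in every pair (3.23%, against 13.6% of all genes). Its control arrays lay around background, at 3.31, 3.41 and 3.04, and REST shRNA arrays 1, 2 and 3 read 3.53, 4.34 and 3.32. Those with the smallest p were Bmpr1b, Dll1 and Lifr. Bmpr1b, a bone morphogenetic protein receptor, read 8.95, 8.53 and 8.68 with the control hairpin and 8.59, 7.61 and 8.08 with REST shRNA and differed by -0.63 ± 0.27 (SE, log2). Dll1 read 10.65, 10.36 and 10.81 with the control hairpin and 9.95, 9.51 and 10.54 with REST shRNA and differed by -0.61 ± 0.28 (SE, log2). Lifr, the receptor of leukaemia inhibitory factor, read 7.84, 7.84 and 8.10 with the control hairpin and 7.70, 7.66 and 6.89 with REST shRNA, and its groups did not overlap. It was the sole such gene of the list (3.23%, against 2.65% of all genes in that direction). Sox9, a transcription factor that promotes gliogenesis, read 10.90, 10.82 and 10.88 with the control hairpin and 10.69, 10.55 and 11.02 with REST shRNA. Nfia, which acts with it, read 11.04, 10.85 and 10.75 with the control hairpin and 10.82, 10.65 and 10.73 with REST shRNA, and neither differed by more than 0.27 in any pair.

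**Figure D5:**
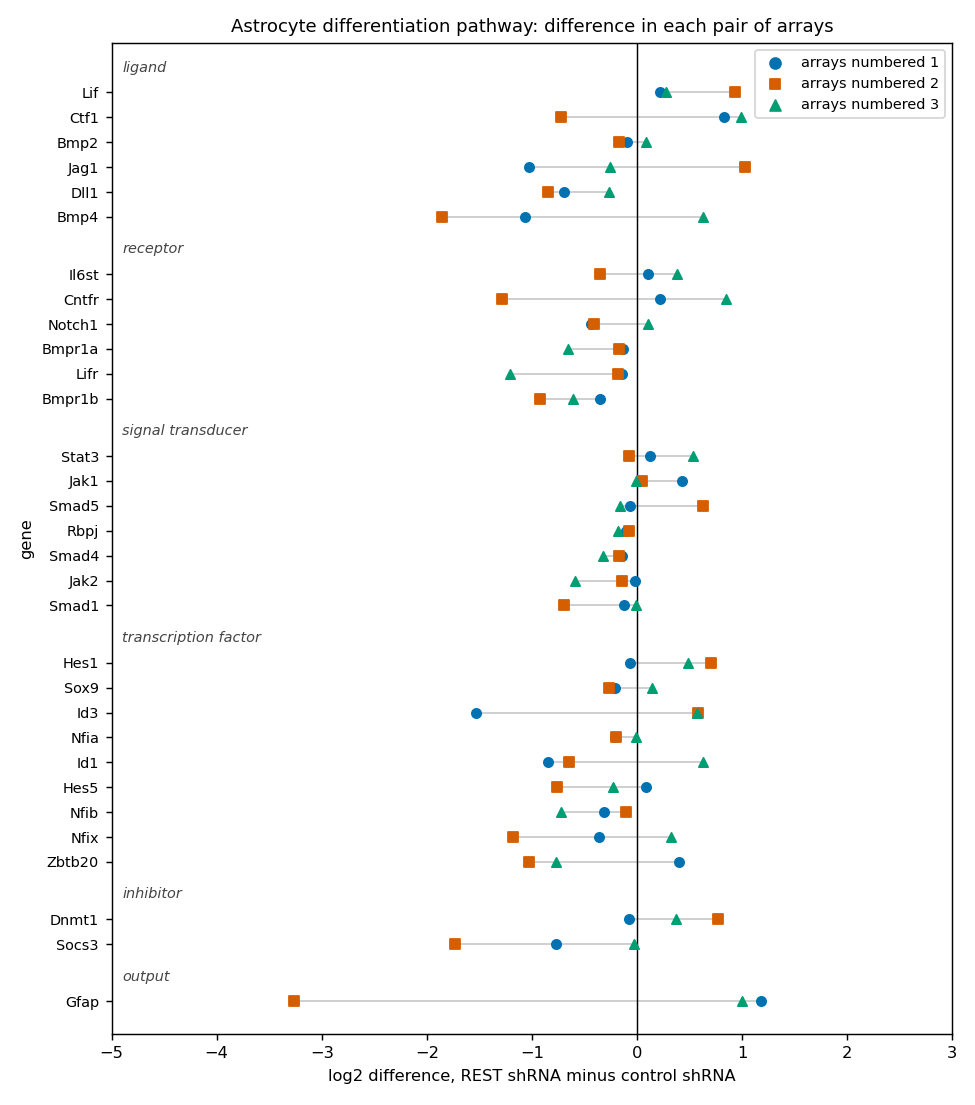
Log2 difference between REST shRNA and control shRNA (horizontal axis) for the 31 measured genes of astrocyte differentiation (vertical axis, by role), with a symbol for each pair of same-numbered arrays. In pair 2 Gfap lies at -3.27, while Sox9 and Nfia lie between -0.27 and 0.14 in every pair.

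Markers of other cell types were summed in the same way, and their part in the astrocyte result was not tested. The 10 measured oligodendrocyte markers had a summed linear signal of 11221 to 14342 in control arrays, 14408 and 17881 in REST shRNA arrays 1 and 3 and 8450 in array 2. In pair 2, 7 of 10 were lower (51.2% of all genes were), while Olig1, Olig2 and Mobp were higher, by 0.20, 0.32 and 1.09. The 10 progenitor markers summed to 21526 to 22050 in control and 17946 to 19994 with REST shRNA, with 9 of 10 below control in pair 2 and a median there of -0.64. Nes, the filament protein of progenitors, was the exception, with 9.99 in REST shRNA array 2 against 6.81 to 8.57 elsewhere. Of 11 neuronal markers 8 were higher, and their sum was 4198 to 5122 in control and 5326 to 7436 with REST shRNA. Microglial and endothelial markers lay near background, with 4 of 11 and 2 of 8 above it, and their sums were 86.5 to 91.3 and 69.6 to 73.3 in control and 89.5 to 110 and 68.1 to 76.7 with REST shRNA. Fibroblast and mural markers summed to 202 to 628 in control and 212 to 579 with REST shRNA, and ependymal markers to 191 to 274 and 245 to 317.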

How the data were processed

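Each of the 6 samples was measured on a 1-colour array. The deposited table holds a log2 signal for each probe set, a unit inferred from its range of 1.00 to 14.2. How the authors corrected and normalized the scans is not given in the sources used here, and array medians lie between 4.89 and 4.96.

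The platform annotation, with symbols updated by gene number through RefSeq (GRCm38.p6), gave 1 gene for 34958 of 45101 probe sets. Another 932 with several genes were dropped, and 9211 have no entry. The fit used limma 3.58.1 in R 4.3.3, two-sided, with group as the only term, 4 residual and 2.70 prior degrees of freedom, and Benjamini-Hochberg adjustment over 18194 genes, with no filter. The steps were tested on simulated data. There the noise was independent between genes and alike in all arrays, so no array was made to stand apart. The number of arrays limits the precision.

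Values in every array are given for members with the 8 smallest p, for the 4 lowest and 4 highest differences of each pair and for related gene pairs, and outside the members for Rest, Gfap and the 3 pathway genes with the smallest p. Sox9, Nfia, Nes and the non-members of the closing observations were added after their values were seen. The members, lists and rules were chosen with earlier results of these data known. Protein sequences were not used here.

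The replicate numbers come from the titles. Deviations of same-numbered arrays from their group means had correlations of 0.108, 0.365 and 0.504 for numbers 1, 2 and 3. Control array 1, however, was closer to REST shRNA array 2 (0.268). The pair differences are descriptive, and every limma p and SE comes from the unpaired fit unless the block term is named. Alternatives were the replicate block, scaling, a filter on dim genes, the choice of probe set, a variance trend, array weights and leaving out arrays or numbers.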

Additional observations from a re-analysis of the deposited data

How the results depend on the processing

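In each alternative 0 genes, 0 astrocyte genes and 0 pathway genes were called at an adjusted p under 0.05 in limma, and Rest stayed below control. At an unadjusted p under 0.05 there were 195 genes lower and 323 higher, against 258 and 407 under a block for the replicate number. The block left 0 calls and put Fgfr3 and Hopx beside Slc1a2 under the unadjusted threshold, and 3 pathway genes, Bmpr1b, Dll1 and Socs3, where there had been 0. With the most variable probe set of each gene, Slc1a2 was not under the unadjusted threshold. Aldoc was then the sole member under it, at an unadjusted limma p of 0.0351. The median over the astrocyte genes lay between -0.65 and 0.07 when arrays or numbers were left out, and was -0.13 with array weights, which gave REST shRNA array 2 the lowest weight. The number of astrocyte genes below control was 13 to 30 when arrays or numbers were left out, with 13 when REST shRNA array 2 was dropped and 13 when both arrays of number 2 were. When single arrays or both arrays of a number were left out, the log2 difference crossed 0 for 23 of the 32 genes, with ranges of -0.78 to 0.15 for Acsbg1, -0.27 to 0.25 for Acsl6, -2.04 to 0.32 for Agt, -0.58 to 0.12 for Aldoc, -1.48 to 0.55 for Apoe and -0.66 to 0.040 for Atp1b2. The range was -0.96 to 0.41 for Cd44, -1.25 to 0.51 for Clu, -0.66 to 0.19 for Cst3, -1.23 to 0.017 for Dio2, -0.39 to 0.089 for Fgfbp3 and -1.04 to 0.26 for Gja1. Further ranges were -0.55 to 0.51 for Gjb6, -1.36 to 0.80 for Itih3, -0.40 to 0.41 for Mlc1, -0.20 to 0.41 for Mt3, -0.41 to 1.29 for Ntsr2 and -0.93 to 0.45 for S100b. The rest were -0.35 to 0.065 for Slc1a3, -0.33 to 0.31 for Slc39a12, -0.83 to 0.12 for Sparc, -1.28 to 0.15 for Sparcl1 and -0.16 to 0.90 for Tnc. The difference of the other 9 kept its sign there. Under the remaining settings 247 of 256 values for single members kept their sign. With array weights the difference crossed 0 for Clu (0.040), Gja1 (0.025), Gjb6 (0.20), Itih3 (0.093), Mlc1 (0.25), S100b (0.12) and Slc39a12 (-0.025), and for Acsl6 it was -0.0070 with quantile normalization and -0.016 with the mean over probe sets. The cause of these changes was not tested. Gjb6 and Slc39a12 lay near background, where array signals can understate differences.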

Other observations

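Values are given here for 3 genes of the differentiation pathway and of other cell types, chosen after their values were seen. Socs3, which is induced by STAT signalling and inhibits it, read 5.38, 5.15 and 10.02 with the control hairpin and 4.61, 3.42 and 9.98 with REST shRNA, so that both arrays numbered 3 lay far above the other 4. Bmp4, a bone morphogenetic protein, read 5.71, 5.45 and 8.21 with the control hairpin and 4.64, 3.60 and 8.84 with REST shRNA, again with both arrays numbered 3 highest. Acta2, the smooth muscle actin, read 8.49, 8.40 and 4.07 with the control hairpin and 3.55, 8.001 and 3.71 with REST shRNA, with control arrays 1 and 2 and REST shRNA array 2 high and the other 3 low. Of the 32 astrocyte genes, both arrays numbered 3 lay above the other 4 for Glul, Sparc and S100b (11.1% of all genes did so) and below them for Acsbg1 and Fgfbp3 (9.40% of all genes). Both arrays numbered 1 lay above the other 4 for 6 astrocyte genes, Slc1a3, Aqp4, Slc4a4, Acsl6, Slc39a12 and Itih3 (5.08% of all genes), and below them for Tnc, Cd44 and Hopx (5.77%). Both arrays numbered 2 lay below the other 4 for 8 astrocyte genes, Slc1a3, Aqp4, Gja1, Dio2, Clu, Sparc, Ntsr2 and S100b (9.27% of all genes), and above them for Acsbg1 (9.53%).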
